A study of Homo sapiens with 6 samples.

Results

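The HOX genes encode homeodomain transcription factors and lie in 4 chromosomal clusters named HOXA, HOXB, HOXC and HOXD. Members were the genes of the count table whose symbol was HOX followed by a cluster letter from A to D and a number, which gave 39 of 60708 genes. The study compared Caki-1 cells, a human clear cell renal carcinoma line, infected with a lentiviral CRISPR vector without a guide (VC, genotype WT) with Caki-1 cells infected with the same kind of vector encoding a guide RNA against VHL (VHL-KO). Each group had 3 libraries of total RNA, with 31789923, 28463579 and 34881739 reads on genes in VC replicates 1 to 3 and 29139722, 22805385 and 22628246 in VHL-KO replicates 1 to 3. The methods of the study describe puromycin selection and knockout clones grown in 96-well plates and checked by immunoblot, and do not say how many clones were sequenced or that VC cells were cloned. Differences between clones and an effect of the knockout therefore cannot be told apart. Nothing in the labels says that replicates were separate cultures, so the p-values below measure the spread between these libraries, which may be technical.

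HOX genes specify position along the head-to-tail axis of the embryo, and their order on the chromosome matches the order of their expression domains, a property called collinearity. Genes with the same number in different clusters are paralogs, and low numbers are anterior while high numbers are posterior. Many adult tissues and carcinoma lines keep a HOX profile from the region of the body they derive from, and the kidney expresses genes of all clusters during its development. Polycomb complexes keep HOX genes silent, Trithorax-group methyltransferases keep them active, and retinoic acid induces anterior genes.

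VHL, the edited gene on chromosome 3, encodes the subunit with which a ubiquitin ligase recognizes HIFα proteins. Its transcript had 1454, 1124 and 1522 reads in the VC libraries and 929, 657 and 650 in the VHL-KO libraries. In CPM, counts scaled to a common library size with TMM factors, all 3 VHL-KO libraries were below all 3 VC libraries. The log2 fold change was -0.33 (standard error, SE, 0.11, Benjamini-Hochberg adjusted p = 0.0109 over all genes by the quasi-likelihood test of edgeR). The adjusted p was 0.0862 without VC replicate 1, 0.0621 without VHL-KO replicate 2, 0.0905 with upper quartile factors and 0.274 with offsets for GC content and length, over a range of 0.000293 to 0.274 across the alternatives. Of all tested genes 31.2% were called lower in VHL-KO cells. An edit that disrupts the protein need not lower the mRNA, so this fall does not check the labels.

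Renal markers were read in all libraries, at summed levels of 8970, 9820 and 9010 CPM in VC and 9280, 8740 and 9150 CPM in VHL-KO. PAX8, a transcription factor of the renal lineage, had between 12971 and 16327 reads, and vimentin (VIM), which was the most abundant gene of the marker list, between 126570 and 232990. PAX2 had 0 reads in every library and CDH1 at most 3. Among the 11 tested renal and epithelial markers 3 (27.3%) were higher and 4 (36.4%) lower in VHL-KO libraries, beside 28.5% and 31.2% of all tested genes. PAX8 rose by 0.52 on the log2 scale, KRT8 by 0.51 and KRT18 by 0.37, and LHX1 fell by 1.67 and ITGB1 by 1.56. The call of KRT18 was lost with library size alone (adjusted p = 0.0724) and with offsets for GC content and length (0.169), within 5e-07 to 0.169. Markers of other cell types had a summed level of 71.0, 73.0 and 60.9 CPM in VC and 103, 97.8 and 91.3 CPM in VHL-KO libraries, and 7 of the 13 were tested, with 3 higher (42.9%) and 2 lower (28.6%). Without GFAP and PECAM1, which reached 10 reads in 1 group alone, 2 of 5 were higher and 2 lower. ACTA2 had 755, 603 and 721 reads in VC and 1745, 1319 and 1231 in VHL-KO, and COL1A1 had 1197, 1085 and 1116 and then 740, 536 and 489. COL1A1 fell by 0.42 (adjusted p = 0.00424), PDGFRB fell by 1.94 on the log2 scale and CD14 rose by 1.47. PTPRC, COL1A2 and CDH5 had at most 1 read in a library and CD3E had 0. The part of these markers in the HOX values was not tested, and fewer cells with a transcript and less of it per cell cannot be told apart in bulk RNA.

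Of the 39 HOX genes, 33 had 10 or more reads in at least 1 library and were tested, among 17401 tested genes of the whole table. These were all 11 genes of HOXA, 9 of 10 in HOXB, 7 of 9 in HOXC and 6 of 9 in HOXD. By position the tested genes were 7 of 8 anterior genes (paralog groups 1 to 3), 14 of 15 central genes (groups 4 to 8) and 12 of 16 posterior genes (groups 9 to 13). HOXB1, which is expressed in rhombomere 4 of the hindbrain, and HOXC12 had 0 reads in all 6 libraries. HOXC5 had 2, 0 and 1 reads in VC and 0 in each VHL-KO library. HOXD11 had 1, 2 and 0 reads in VC and 0 in VHL-KO. HOXD10 had 2, 1 and 3 reads in VC and 0, 1 and 5 in VHL-KO, and HOXD12 had 2, 2 and 5 and then 2, 3 and 7. Of the posterior HOXD genes, therefore, HOXD9 and HOXD13 reached 10 reads. A count of 0 allows a level of up to 3 counts, or 0.079 CPM in the deepest and 0.141 CPM in the shallowest library, for counting error alone.

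Levels of different genes were compared as CPM per kilobase of annotated exon (RPKM). In VC cells HOXA3 was highest at a mean level of 14.5 RPKM, followed by HOXB7 at 13.9 and HOXB2 at 13.7 RPKM. HOXB9 had a level of 10.6 RPKM and HOXA10 of 10.2 RPKM. HOXA3 and HOXB7 also led in VHL-KO cells, at levels of 30.8 and 22.0 RPKM, with HOXA5 at 21.6 and HOXA10 at 17.9 RPKM. HOXA5 moved from position 8 to 3 in the order of levels per length and HOXA4 from position 13 to 6, while HOXB9 moved from 4 to 8 and HOXC8 from 18 to 25. HOXA7, HOXA13 and HOXD13 were the lowest of the tested genes in both groups, with levels of at most 0.222 RPKM.

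**Figure D1:**
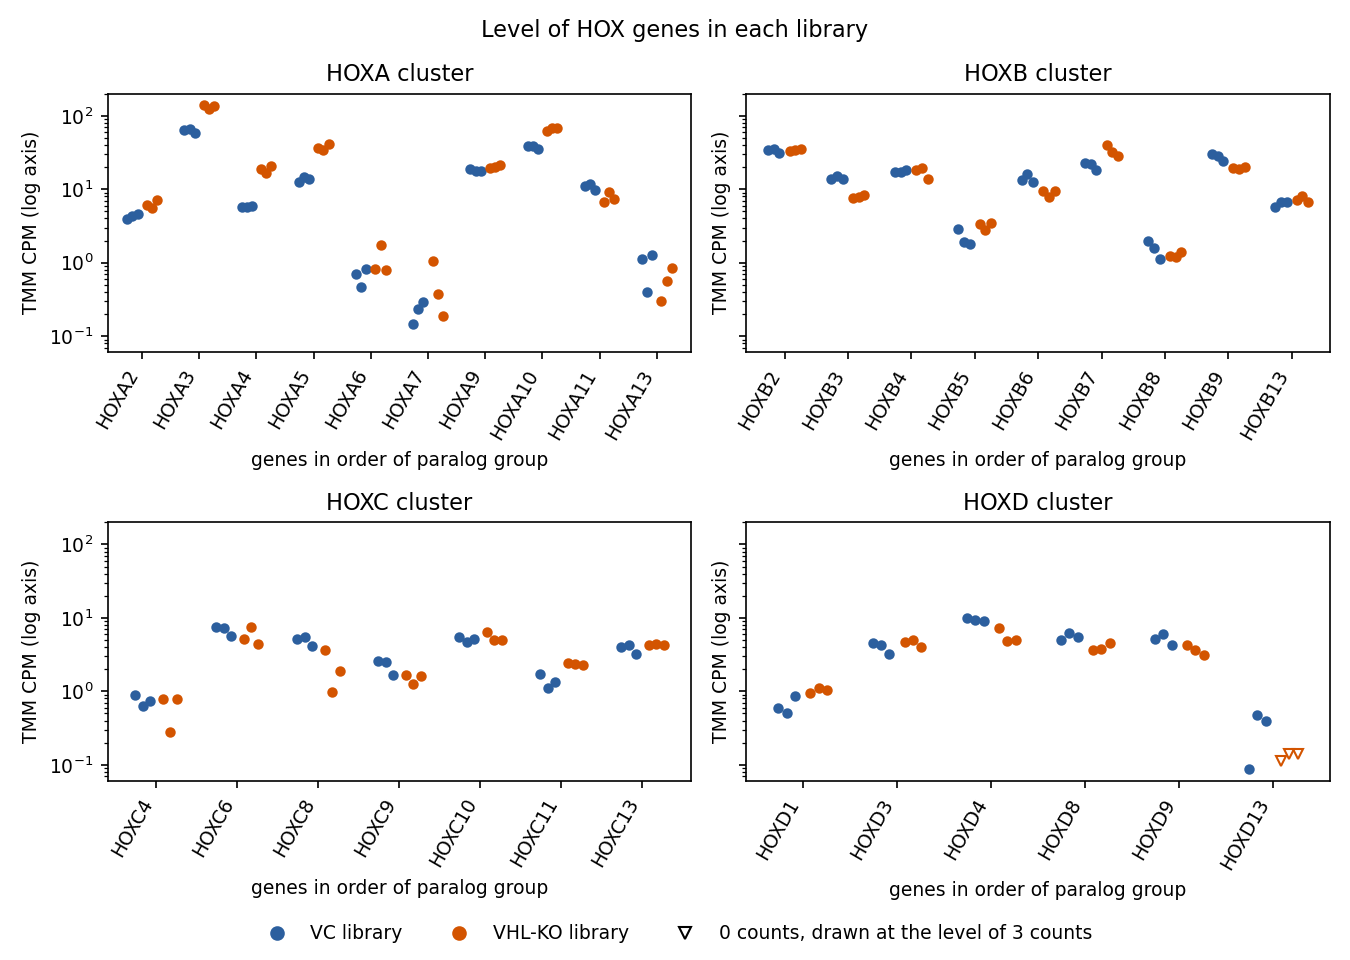
Level of the HOX genes described in the text in each library, in TMM-scaled CPM on a log axis, by cluster and in order of paralog group. Blue points are the 3 VC and orange points the 3 VHL-KO libraries, and open triangles mark 0 counts, drawn at the level of 3 counts. HOXA3, HOXA4, HOXA5 and HOXA10 lie higher in every VHL-KO library than in any VC library, and HOXB3 lies lower.

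Of the 33 tested HOX genes, 8 were higher and 9 lower in VHL-KO cells at an adjusted p under 0.05 by the quasi-likelihood test of edgeR with Benjamini-Hochberg adjustment over all genes. This is 24.2% and 27.3% of the tested members, beside 28.5% higher and 31.2% lower among all 17401 tested genes (59.7% in either direction). The groups did not overlap in CPM for 19 of the 33, or 57.6%, against 64.7% of all tested genes. The HOX genes as a whole were thus not called more often than other genes. Their median log2 fold change was 0.02, also with HOXD13 at the bound given below, and the median of all tested genes was -0.01. HOXD13 reached 10 reads in VC libraries alone, the group where it was high, so its call is not read as support, and without it 8 were higher and 8 lower of 32. By cluster the counts were 5 higher and 2 lower of 11 in HOXA, 2 and 3 of 9 in HOXB, 1 and 1 of 7 in HOXC, and 0 and 3 of 6 in HOXD (0 and 2 of 5 without HOXD13). No test between clusters was made.

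The share of higher among called genes differed between scalings. It was 47.1% of called HOX genes and 47.7% of all called genes with TMM factors, 57.1% and 55% with upper quartile factors, and 31.2% and 35.8% with library size alone. The median of all tested genes moved with it, to 0.10 with upper quartile factors and -0.20 with library size alone. With offsets for GC content and length, 31.6% of called HOX genes were higher, 6 against 13 lower, beside 49.0% of all called genes. With the replicate block added to the offsets these shares were 35.0% and 48.6%. HOXD13, which reached 10 reads in VC libraries alone, is counted among the lower HOX genes in each of these shares. Without it 8 HOX genes were higher and 8 lower with TMM factors. The difference between the HOX share and that of all genes was not tested. Directions below are therefore relative to the TMM scale, on which the median gene is near 0. Of the 16 called HOX genes other than HOXD13, 10 kept their direction and their call under every alternative that gave them a value, and none of the 16 changed sign.

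**Figure D2:**
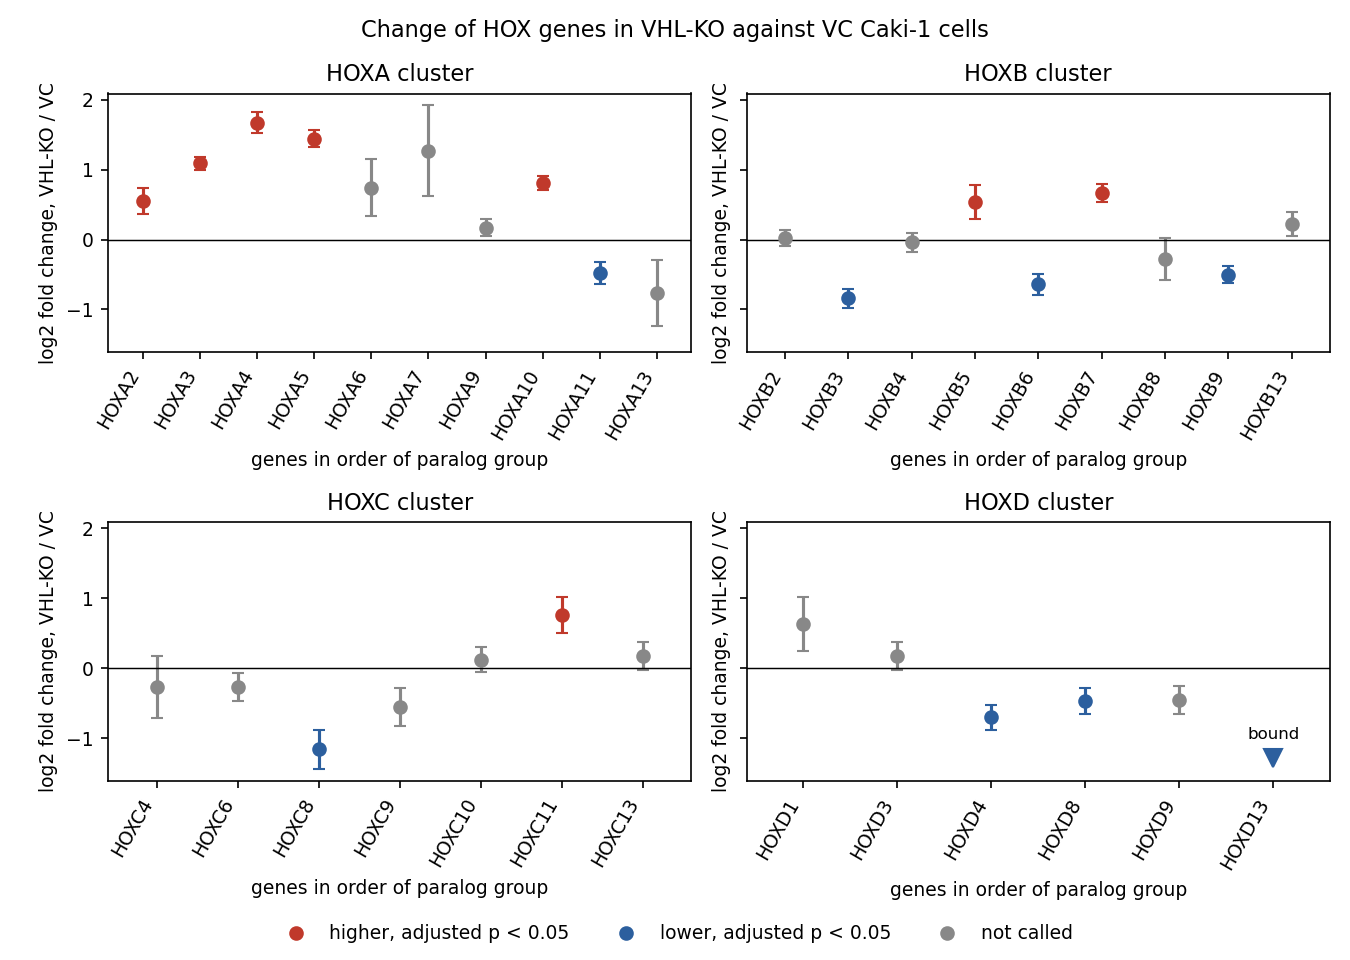
Log2 fold change of VHL-KO against VC for the HOX genes described in the text by cluster, in order of paralog group, with bars of 1 standard error. Red marks genes called higher, blue genes called lower and grey genes not called, and the triangle for HOXD13 is a bound because all VHL-KO libraries had 0 counts. HOXA2 to HOXA5 are all called higher, with HOXA4 highest at 1.67.

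The HOXA cluster held the largest rises. It lies on chromosome 7 of GRCh38 (GENCODE 44), with its genes on the minus strand. HOXA3, HOXA4 and HOXA5 rose 2.13-fold, 3.19-fold and 2.72-fold. The annotated span of HOXA3 (27106184-27152583) contains HOXA4 (27128507-27130780), HOXA5 (27141052-27143681) and HOXA6. HOXA2 and HOXA10, which lie outside it, also rose, whereas HOXA11 fell.

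HOXA3, needed for the thymus and parathyroid glands, had 2169, 1933 and 2220 reads in VC and 3704, 2689 and 2864 reads in VHL-KO libraries. The groups were far apart despite the lower depth of the VHL-KO libraries, at 62.4 ± 3.44 and 133 ± 7.19 CPM (mean ± SD, n = 3 each). HOXA3 rose by 1.09 on the log2 scale (SE 0.09, adjusted p = 4.2e-10). Of its exonic bases, 17.3% are also annotated in HOXA-AS2 or HOXA-AS3 on the opposite strand and 9.3% in other genes on the same strand, so part of its reads may belong to those transcripts. HOXA3 took 17.7% of the HOX reads in VC and 28.0% in VHL-KO libraries on average.

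HOXA4, which acts on cervical vertebrae, had the largest rise of the HOX genes called on all libraries with TMM factors. With offsets for GC content and length that of HOXA5 was larger, and without VHL-KO replicate 3 HOXA7 was at 1.67 and HOXA4 at 1.60. Its reads were 198, 170 and 223 in VC and 501, 353 and 435 in VHL-KO libraries. The VC libraries lay close together at 5.80 ± 0.0763 CPM, and the VHL-KO libraries reached 18.5 ± 2.03 CPM without overlap. The log2 fold change was 1.67 (SE 0.15, adjusted p = 6.2e-10). Of its exonic bases, 31.3% are also annotated in another gene on the same strand and 16.5% in HOXA-AS2 or HOXA-AS3 on the opposite strand.

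HOXA5, needed for the lung and trachea, shares no exonic base with another annotated gene. It had 423, 436 and 529 reads in VC and 962, 745 and 875 reads in VHL-KO libraries. Its level was 13.7 ± 1.17 CPM in VC and 37.2 ± 3.41 CPM in VHL-KO cells, with every VHL-KO library above every VC library. The log2 fold change was 1.44 (SE 0.12, adjusted p = 3.3e-10). With offsets for GC content and length the differences of HOXA3, HOXA4 and HOXA5 were 0.90, 1.26 and 1.34 on the log2 scale.

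HOXA2, which sets the identity of the second pharyngeal arch, had 136, 128 and 174 reads in VC and 165, 120 and 152 reads in VHL-KO libraries. After scaling it was higher in every VHL-KO library, at 4.29 ± 0.3 and 6.29 ± 0.790 CPM. The difference was 0.55 on the log2 scale (SE 0.18, adjusted p = 0.0113). The call was lost without VC replicate 1 (adjusted p = 0.0608), without VHL-KO replicate 3 (0.052), with library size alone (0.0967) and with offsets for GC content and length (0.0523), and its adjusted p-values lay between 0.00239 and 0.0967.

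In the middle of the cluster HOXA6 and HOXA7 had few reads. HOXA6 had 24, 14 and 31 reads in VC and 22, 38 and 17 in VHL-KO libraries, a log2 fold change of 0.74 that was not called (adjusted p = 0.12). It was 0.28 without VHL-KO replicate 2 and 0.05 with offsets for GC content and length (adjusted p = 0.931, range 0.0634 to 0.975). HOXA7 had 5, 7 and 11 reads in VC and 28, 8 and 4 in VHL-KO libraries, so that VHL-KO replicate 1 alone stood above the others. Its log2 fold change was 1.27 (SE 0.65, adjusted p = 0.0958), and it was 0.32 without VHL-KO replicate 1 (adjusted p = 0.748) and 1.67 without VHL-KO replicate 3 (0.0266), the ends of its range over the alternatives. Exons of HOXA7 overlap the opposite strand transcript HOXA-AS3 over 62.5% of their bases.

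The posterior genes of HOXA were mixed. HOXA9, a gene of blood progenitors and leukaemia, had 639, 521 and 678 reads in VC and 514, 437 and 457 in VHL-KO libraries. It did not pass the test, with a log2 fold change of 0.17 (adjusted p = 0.235), although the groups did not overlap in CPM, and its sign turned with library size alone. HOXA10, known for its role in the uterus, had 1316, 1152 and 1360 reads in VC and 1663, 1490 and 1438 in VHL-KO libraries. All VHL-KO libraries were above all VC libraries, at 66.3 ± 3.55 against 37.7 ± 1.64 CPM. HOXA10 rose by 0.81 on the log2 scale (SE 0.10, adjusted p = 1.6e-07). Of its exonic bases, 16.4% are also annotated in HOXA10-AS on the opposite strand and 9.9% in another gene on the same strand.

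HOXA11 acts with its paralogs in the first outgrowth of the ureteric bud in kidney development. It had 376, 351 and 370 reads in VC and 181, 198 and 159 in VHL-KO libraries. The groups did not overlap, at 10.9 ± 1.04 and 7.80 ± 1.24 CPM. Expressed as log2 fold change this was -0.48 (SE 0.16, adjusted p = 0.0133), with an adjusted p of 0.0871 without VHL-KO replicate 1 and 0.051 with upper quartile factors, over a range of 0.000241 to 0.0871. HOXA13, a gene of the distal limb and genital tubercle, had 38, 12 and 49 reads in VC and 8, 12 and 18 in VHL-KO libraries. Its groups overlapped through VC replicate 2, and the log2 fold change of -0.76 was not called (adjusted p = 0.166), while it was -1.09 without VC replicate 2 (adjusted p = 0.0438) and -0.43 without VC replicate 3 (0.547), the ends of the range of its adjusted p-values.

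The sequences before the start sites of HOXA4 and HOXA11 are shown as those of genes of the same cluster that moved in opposite directions. They are the 250 bases before the start of each gene from RefSeq (GRCh38.p14), on the minus strand, at chr7:27130758-27131007 for HOXA4 and chr7:27185233-27185482 for HOXA11. Capitals mark the core of the HIF response element, ACGTG or GCGTG, on either strand. HOXA4 holds a palindromic match, counted on both strands, and HOXA11 holds 2 separate matches.
HOXA4: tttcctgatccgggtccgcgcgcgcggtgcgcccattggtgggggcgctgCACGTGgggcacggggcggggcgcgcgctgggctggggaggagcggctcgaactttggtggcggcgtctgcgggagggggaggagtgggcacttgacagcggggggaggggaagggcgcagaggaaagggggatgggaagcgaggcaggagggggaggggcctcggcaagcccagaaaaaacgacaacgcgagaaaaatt
HOXA11: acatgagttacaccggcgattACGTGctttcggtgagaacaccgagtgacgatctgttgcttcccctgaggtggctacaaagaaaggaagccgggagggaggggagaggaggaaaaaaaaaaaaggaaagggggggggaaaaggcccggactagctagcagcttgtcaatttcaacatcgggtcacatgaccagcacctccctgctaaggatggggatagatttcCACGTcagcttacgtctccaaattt

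The promoter table held windows for 20 of the 39 HOX genes, 27 windows in all, of which 7 belong to HOXA3 and 1 is shared by HOXC4 and HOXC5. With each position counted once, the core was present in 17 of 26 windows (65.4%) and in 43.2% of 34943 windows of all genes. HOX windows had a median ratio of observed to expected CpG of 0.886, against 0.556 for all windows, at median GC contents of 58.8% and 58.0%. The motif TGATNNAT, to which HOX and PBX proteins bind together, was found in 3 of the 26 windows (11.5%), those of HOXA2, HOXB1 and HOXD11, and in 6.49% of all windows. Such matches describe the letters in these windows and do not show binding.

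In the HOXB cluster, at chr17:48528526-48728750 on the minus strand, called genes of either direction alternated. HOXB5 and HOXB7 were higher, and HOXB3, HOXB6 and HOXB9 were lower. The annotated span of HOXB3 contains HOXB4 and HOXB5, and that of HOXB7 contains HOXB8 and HOXB9, so that genes with opposite changes lie inside each other's spans.

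HOXB3, a hindbrain gene, had 465, 445 and 529 reads in VC and 201, 170 and 178 in VHL-KO libraries. The groups were well separated at 14.2 ± 0.711 and 7.92 ± 0.413 CPM. HOXB3 fell by 0.84 on the log2 scale (SE 0.14, adjusted p = 2.1e-05). HOXB6 had 459, 472 and 473 reads in VC and 249, 170 and 204 in VHL-KO libraries, and fell by 0.64 (SE 0.15, adjusted p = 0.000779) without overlap of the groups. Of the exonic bases of HOXB6, 16.6% are shared with HOXB3 and 16.3% with HOXB-AS3 on the other strand.

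HOXB7, whose promoter is active in the ureteric bud and collecting duct, had 768, 660 and 703 reads in VC and 1053, 694 and 608 in VHL-KO libraries. In CPM every VHL-KO library was above every VC library, at 33.4 ± 5.55 against 21.1 ± 2.22. On the log2 scale the difference was 0.67 (SE 0.13, adjusted p = 9.5e-05). HOXB9, which lies within the span of HOXB7 and shares no exonic base with it, had 1023, 850 and 912 reads in VC and 521, 402 and 429 in VHL-KO libraries. Here the groups were ordered the other way, at 27.5 ± 3.11 and 19.4 ± 0.749 CPM, a log2 fold change of -0.50 (SE 0.12, adjusted p = 0.00103).

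HOXB5, a gene of the lung and enteric nervous system, had 97, 57 and 69 reads in VC and 89, 60 and 74 in VHL-KO libraries. VC replicate 1 was above VHL-KO replicate 2 in CPM, so the groups overlapped. Its log2 fold change of 0.54 (SE 0.24) lay at the threshold, with an adjusted p of 0.0497. The call was lost without replicate 2 (adjusted p = 0.109) or 3 (0.156) of VC, without replicate 1 (0.105) or 3 (0.112) of VHL-KO, with DESeq2 (0.0704), library size alone (0.211), no filter on reads (0.0961) and offsets for GC content and length (0.336). Over the alternatives it ranged from 0.0187 to 0.336.

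The other tested genes of HOXB were not called. HOXB2, which acts in facial motor neurons, had 1173, 1054 and 1192 reads in VC and 896, 744 and 742 in VHL-KO libraries, or 33.7 ± 2.11 and 34.3 ± 0.655 CPM. HOXB4, known from blood stem cells, was at 17.7 ± 0.736 and 17.2 ± 2.98 CPM. Their log2 fold changes were 0.02 and -0.04, with signs that turned between scalings, and with offsets for GC content and length they were -0.34 (adjusted p = 0.000671, range 0.000527 to 0.946) and -0.43 (adjusted p = 0.00462, range 0.00398 to 0.955). HOXB8 had between 43 and 67 reads in VC and between 26 and 33 in VHL-KO libraries, with a log2 fold change of -0.28. HOXB13, a gene of the prostate that lies apart from the rest of the cluster, had 195, 196 and 251 reads in VC and 189, 177 and 143 in VHL-KO libraries. It was not called at a log2 fold change of 0.22 (adjusted p = 0.272), which was -0.05 with offsets for GC content and length.

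The HOXC cluster, at chr12:53938831-54056030 on the plus strand, has no anterior genes and held 1 called gene of each direction. HOXC8, which acts in motor neurons of the forelimb, had 176, 163 and 159 reads in VC and 97, 21 and 40 in VHL-KO libraries. All VHL-KO libraries were lower, but they differed widely among themselves, at 3.63, 0.973 and 1.88 CPM against 4.94 ± 0.674 CPM in VC. The fitted log2 fold change was -1.16 (SE 0.28, adjusted p = 0.00113), and it was -1.78 without VHL-KO replicate 1 and -0.82 without VHL-KO replicate 2, with adjusted p-values from 8.6e-07 to 0.0102 over the alternatives. HOXC8 shares no exonic base with another annotated gene.

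HOXC11 is a paralog of HOXA11, and it moved the opposite way. It had 58, 33 and 51 reads in VC and 64, 51 and 49 in VHL-KO libraries. The VHL-KO libraries lay close together and above VC, at 2.35 ± 0.0497 and 1.38 ± 0.296 CPM. The difference was 0.76 on the log2 scale (SE 0.26, adjusted p = 0.0149), with an adjusted p of 0.0559 without VC replicate 2 and 0.0671 with library size alone, over a range of 0.00574 to 0.0671.

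HOXC9, a thoracic gene of motor neurons, had 89, 74 and 63 reads in VC and 45, 27 and 35 in VHL-KO libraries. The groups overlapped through VC replicate 3 and VHL-KO replicate 1, and the log2 fold change of -0.55 was not called (adjusted p = 0.0807). It was -0.72 without VC replicate 3 (adjusted p = 0.0393), -0.74 with library size alone (0.021) and -0.92 with offsets for GC content and length (0.00327), over a range of 0.00327 to 0.29. HOXC6 had 260, 218 and 216 reads in VC and 138, 163 and 93 in VHL-KO libraries, with a log2 fold change of -0.27 that was -0.52 without VHL-KO replicate 2 (adjusted p = 0.0388) and -0.11 without VHL-KO replicate 3 (0.657), the ends of its range. HOXC10, HOXC13 and HOXC4 had log2 fold changes of 0.12, 0.17 and -0.27. None of these 3 was called under any alternative, and each changed sign under at least 1 of them.

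The HOXD cluster, at chr2:176092721-176190907 on the plus strand, held no gene called higher. By the quasi-likelihood test of edgeR 0 of its 6 tested genes were higher and 3 were lower, or 2 of 5 without HOXD13, beside 28.5% higher and 31.2% lower of all tested genes. The count of higher genes was 0 also at an unadjusted p under 0.05 and with DESeq2.

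HOXD4, a gene of the posterior hindbrain, had 335, 276 and 349 reads in VC and 197, 106 and 106 in VHL-KO libraries. The groups did not overlap, at 9.43 ± 0.333 and 5.75 ± 1.40 CPM, and VHL-KO replicate 1 was nearest to VC. Its log2 fold change was -0.70 (SE 0.18, adjusted p = 0.00131), and with offsets for GC content and length it was -1.34, with adjusted p-values from 3.5e-08 to 0.0133 over the alternatives. HOXD8 had 170, 182 and 208 reads in VC and 98, 82 and 96 in VHL-KO libraries, without overlap, and a log2 fold change of -0.47 (SE 0.19, adjusted p = 0.0337). This call was lost without any single VC replicate (adjusted p = 0.0501, 0.114 and 0.0593 for replicates 1, 2 and 3), without VHL-KO replicate 1 (0.113) or 2 (0.0897), and with DESeq2 (0.0629) or upper quartile factors (0.103). Its range was 0.00314 to 0.114.

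HOXD9 lies next to HOXD8 and had 177, 178 and 160 reads in VC and 116, 78 and 67 in VHL-KO libraries. VHL-KO replicate 1 was as high as VC replicate 3, and the log2 fold change of -0.46 missed the threshold (adjusted p = 0.0519). It was -0.57 without VC replicate 3 (adjusted p = 0.0206), -0.59 without VHL-KO replicate 1 (0.0337), -0.65 with library size alone (0.0081), -0.50 without the filter on reads (0.0481) and -1.0 with offsets for GC content and length (3.4e-05), over a range of 2.4e-05 to 0.208. HOXD13, a gene of the digits, had 3, 14 and 15 reads in VC and 0 in each VHL-KO library. Against a floor of 3 counts per library it was at least 2.43-fold lower in VHL-KO cells, a bound that was 3.31-fold without VC replicate 1, 1.85-fold without VC replicate 2 and 2.14-fold without VC replicate 3. HOXD1 and HOXD3, at the anterior end, had log2 fold changes of 0.63 and 0.17 and were not called, and the sign of HOXD3 turned with library size alone and with the offsets. Over 60.1% of its exonic bases HOXD1 overlaps HAGLR and another transcript on the opposite strand.

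The windows before HOXD4, which was called lower, and HOXD13, which had reads in VC libraries alone, are shown for this cluster. They lie at chr2:176151300-176151549 and chr2:176092471-176092720 on the plus strand (RefSeq, GRCh38.p14). Capitals again mark ACGTG or GCGTG on either strand, with 1 match in HOXD4 and 3 in HOXD13, of which 2 are the strands of a palindrome.
HOXD4: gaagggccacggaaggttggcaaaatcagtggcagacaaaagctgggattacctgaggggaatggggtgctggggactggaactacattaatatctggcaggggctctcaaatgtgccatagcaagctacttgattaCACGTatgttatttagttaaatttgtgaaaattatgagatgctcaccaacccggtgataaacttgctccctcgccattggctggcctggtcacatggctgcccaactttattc
HOXD13: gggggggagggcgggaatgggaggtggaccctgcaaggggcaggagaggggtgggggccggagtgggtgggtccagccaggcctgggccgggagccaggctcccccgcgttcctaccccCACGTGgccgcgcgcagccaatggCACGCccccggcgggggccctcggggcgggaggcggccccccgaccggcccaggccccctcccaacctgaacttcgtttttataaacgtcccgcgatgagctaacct

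Summed over genes, HOX levels were higher in VHL-KO libraries, and HOXA held the difference. All HOX genes together had 360, 367 and 332 CPM in VC and 482, 461 and 474 CPM in VHL-KO libraries, a ratio of 1.34. HOXA had 165, 169 and 158 CPM in VC and 297, 288 and 309 CPM in VHL-KO libraries, a ratio of 1.82 without overlap. HOXB had 142, 144 and 128 CPM and then 139, 133 and 127 CPM, which overlap. HOXC also overlapped, at 25.2 ± 2.86 and 22.2 ± 2.11 CPM. HOXD was lower in each VHL-KO library, at 25.3 ± 1.62 and 19.3 ± 1.56 CPM, a ratio of 0.763. HOXA accordingly made up 46.5% of HOX reads in VC and 63.1% in VHL-KO cells, and HOXB 39.2% and 28.1%. HOXA3, HOXA4 and HOXA5 alone held 23.2% and 39.8%.

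By position, summed anterior, central and posterior genes were each higher in every VHL-KO library than in any VC library. Anterior genes were at 129 ± 6.43 and 194 ± 8.12 CPM, and central genes at 104 ± 5.15 and 140 ± 7.99 CPM. No test was made on these sums. Posterior genes were at 120 ± 7.02 and 139 ± 4.37 CPM, a log2 ratio of 0.22 that was 0.03 with library size alone. These sums are led by a few genes of HOXA. Central HOXA genes had a ratio of 2.82, while central HOXC and HOXD genes had ratios of 0.672 and 0.651. Position in a cluster thus did not go with a common direction across clusters. The medians of the single genes were 0.17 for anterior, -0.15 for central and -0.17 for posterior genes on the log2 scale. The posterior median includes HOXD13, which reached 10 reads in VC libraries alone. Without HOXD13 the middle posterior gene was HOXC10 at 0.12, so the sign of this median rests on HOXD13.

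**Figure D3:**
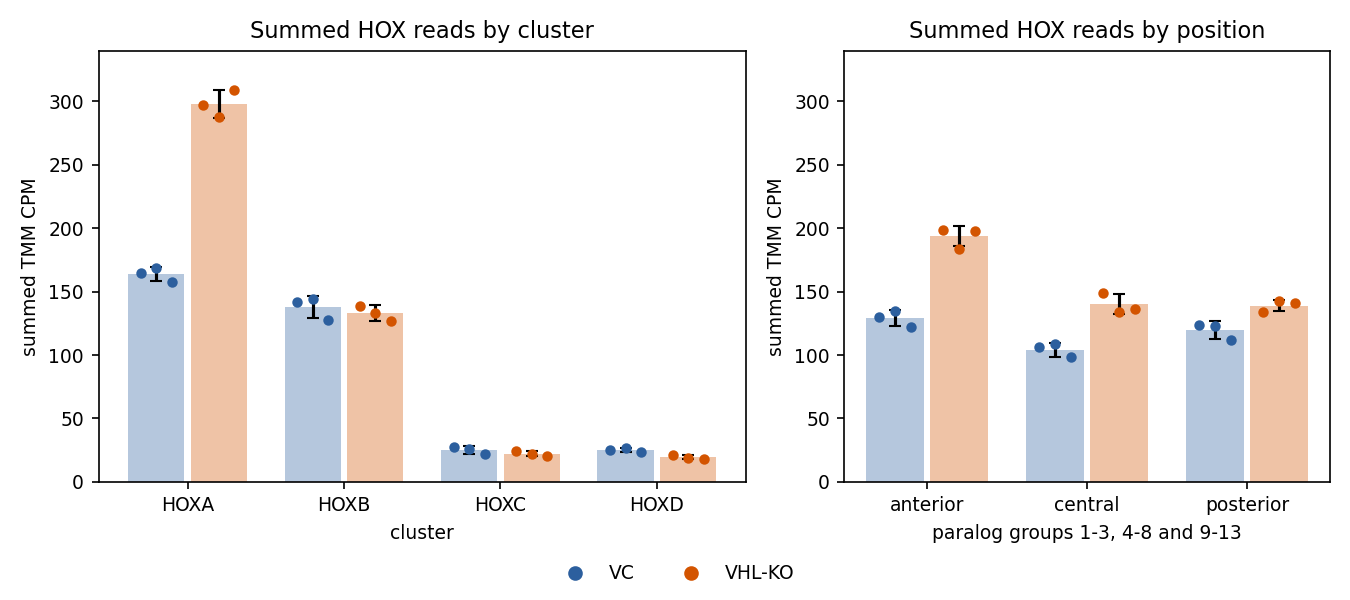
Summed TMM-scaled CPM of HOX genes by cluster and by position (paralog groups 1 to 3, 4 to 8 and 9 to 13). Bars are means, error bars are the SD over 3 libraries and points are libraries, with VC in blue and VHL-KO in orange. HOXA has means of 164 and 298 CPM, while the groups overlap for HOXB, at 138 and 133 CPM.

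Called paralogs moved in the same direction in some groups and in opposite directions in others, and no test between paralogs was made. In group 3, HOXA3 rose and HOXB3 fell, while HOXD3 was not called. In group 4, HOXA4 rose, HOXD4 fell, and HOXB4 and HOXC4 were not called. In group 5, HOXA5 rose and HOXB5 was called higher at the threshold. In group 8 the called genes HOXC8 and HOXD8 both fell. In group 9, HOXB9 fell, HOXC9 at -0.55 and HOXD9 at -0.46 were not called, and neither was HOXA9 at 0.17. In group 11 HOXA11 fell while HOXC11 rose.

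Log2 fold changes of all genes followed the GC content of their transcripts in these libraries, and HOX transcripts are rich in GC. The median GC content was 54.3% for the 33 tested HOX genes and 47.9% for the 17355 tested genes with a value. Tested genes under 40% GC had a median log2 fold change of -0.45 and those with 60% or more had 0.50. Among the 10361 genes within the GC range of the HOX genes, from 43.7% to 62.6%, the median was 0.13, against 0.02 for the HOX genes. With offsets that remove each library's trend with GC content and transcript length, the HOX median was -0.32 and that of all tested genes 0.00. The medians of HOXA, HOXB, HOXC and HOXD were 0.74, -0.04, -0.27 and -0.47 without and 0.37, -0.43, -0.32 and -0.80 with the offsets. The HOXD medians include HOXD13, which had reads in VC libraries alone. Without HOXD13 the middle HOXD gene was HOXD9 at -0.46 without the offsets and HOXD8 at -0.6 with them. HOXA was highest and HOXD lowest on both scales, with or without HOXD13, and HOXB and HOXC changed places. Such offsets also remove any biological change that follows GC content, and which of the scales is nearer to the cells was not tested.

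**Figure D4:**
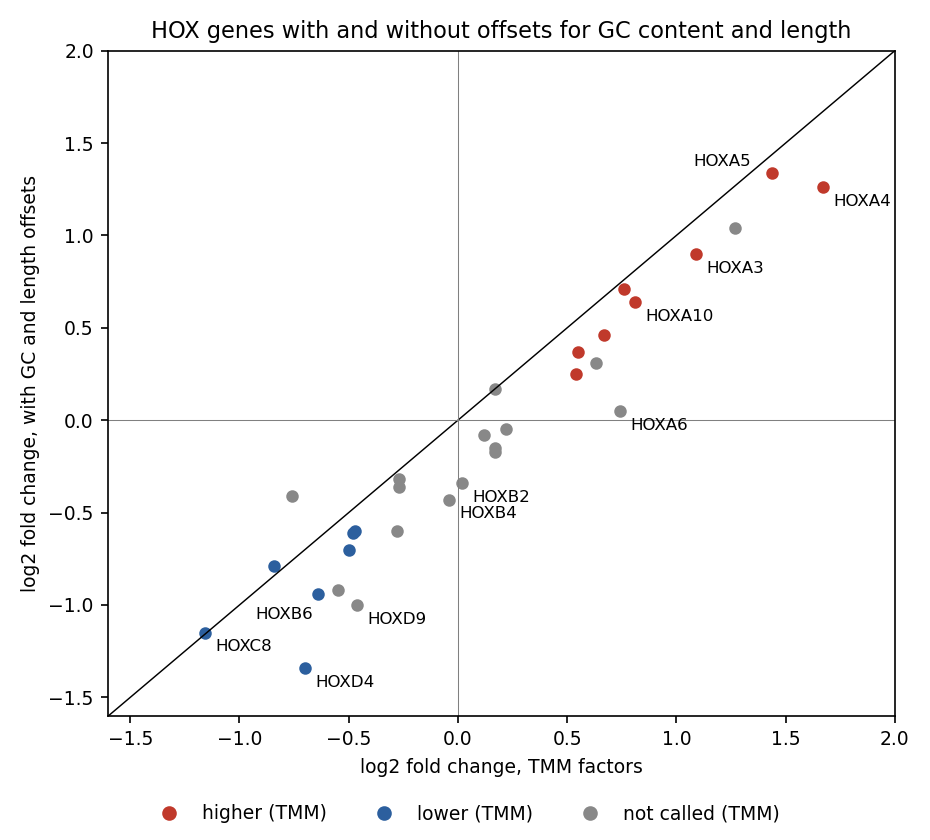
Log2 fold change of the HOX genes described in the text with TMM factors (horizontal axis) and with added offsets for GC content and length (vertical axis), coloured by the call with TMM factors. HOXD13, with 0 counts in VHL-KO, is left out. Most points lie under the diagonal, and HOXB2, HOXB13, HOXC10, HOXC13 and HOXD3 lie on opposite sides of 0 on the axes.

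Overlap with other transcripts limits some of these values, because the sources do not state whether counting used strand. Of the tested HOX genes, 11 share no exonic base with another annotated gene, and without HOXD13 these are 10, of which 4 were higher (HOXA2, HOXA5, HOXB7 and HOXC11), or 40%, and 3 lower (HOXB9, HOXC8 and HOXD4), or 30%, beside 28.5% and 31.2% of all tested genes. Another 6 genes share over 20% on either strand, namely HOXA4, HOXA6, HOXA7, HOXA11, HOXD1 and HOXD8.

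Of 25 listed noncoding RNAs of the clusters 15 were tested, and 6 (40%) were higher and 0 lower by the quasi-likelihood test of edgeR, beside 28.5% and 31.2% of all tested genes. Their median log2 fold change was 0.68, and 0.19 with the offsets. The count of lower ones was 0 also at an unadjusted p under 0.05 and with DESeq2. With the offsets 3 were higher, namely HOXA-AS2, HAGLR and HOXA-AS3, and 1 was lower. The lower one was HOXD-AS2 at -0.54 (adjusted p = 0.000231, range 0.000145 to 0.712) against 0.26 without the offsets. Of the 15, HOXA-AS3, HOXC-AS1 and MIR196A1 reached 10 reads in 1 group alone. Without these, 5 of 12 were higher and 0 lower in the fit without offsets. The 2 medians and the counts with the offsets include them. HOXA-AS2, which is transcribed from the strand opposite HOXA3 and HOXA4, had 605, 478 and 602 reads in VC and 1112, 779 and 828 in VHL-KO libraries. It rose together with its neighbours, by 1.23 on the log2 scale (SE 0.12, adjusted p = 2.1e-09), with 13.1% of its exonic bases on the other strand of annotated genes. HOXA-AS3 had 2, 4 and 2 reads in VC and 9, 11 and 3 in VHL-KO libraries, at a log2 fold change of 1.99 (SE 0.86, adjusted p = 0.0481). It reached 10 reads in VHL-KO replicate 2 alone and had no value without it, so its call is not read as support. The call was lost without VC replicate 1 (adjusted p = 0.144), VC replicate 3 (0.155) or VHL-KO replicate 1 (0.081) and with DESeq2 (0.0678), library size alone (0.0705) or no filter on reads (0.0816), among others, and ranged from 0.0226 to 0.155.

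HOXA11-AS rose by 0.86 while HOXA11 on the other strand fell by 0.48. HOXA11-AS had 41, 33 and 21 reads in VC and 49, 35 and 36 in VHL-KO libraries (adjusted p = 0.0271), with adjusted p-values of 0.168 without VC replicate 3, 0.0695 without VHL-KO replicate 1, 0.0842 with library size alone and 0.311 with the offsets (range 0.013 to 0.313). HOXB-AS1 rose by 0.78 (adjusted p = 0.00319) and HOXA10-AS by 0.75 (adjusted p = 9.6e-05). Of their exonic bases 29.6% lie opposite HOXB2 and HOXB3 and 62.3% opposite HOXA9 and HOXA10, and for HOXA11-AS 27.7% lie opposite annotated genes, so without known strandedness part of these reads may come from the genes on the other strand. Both calls were lost with the offsets, at adjusted p-values of 0.503 (range 0.000722 to 0.503) and 0.154 (range 1.3e-06 to 0.166). HOTAIRM1, of the HOXA cluster, rose by 0.70 (adjusted p = 0.0194), and its adjusted p was 0.0587 without VC replicate 3, 0.174 without VHL-KO replicate 2, 0.0924 with library size alone and 0.0775 with the offsets (range 0.00571 to 0.174). HOTAIR, of the HOXC cluster, had 19, 11 and 22 reads in VC and 3, 6 and 13 in VHL-KO libraries and was not called (adjusted p = 0.379).

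Genes that flank the clusters moved in both directions, 6 higher (42.9%) and 5 lower (35.7%) of 14 tested, beside 28.5% and 31.2% of all tested genes. Their median was -0.08, and 0.20 with the offsets. Beside HOXA, SKAP2 rose by 0.78 and HIBADH by 0.36, while TAX1BP1 at -0.04 and SNX10 at -0.17 were not called. Beside HOXB, CBX1, which encodes a heterochromatin protein, fell by 0.83 and TTLL6 rose by 1.20, with SNX11 at -0.12 not called. Beside HOXC, CALCOCO1 had the largest rise at 1.48 and SMUG1 rose by 0.34, whereas CBX5 fell by 0.81 and HNRNPA1 by 0.84. Beside HOXD, LNPK rose by 0.64, and MTX2 fell by 0.66 and ATP5MC3 by 0.57. The calls of HIBADH and SMUG1 were lost with library size alone (adjusted p = 0.125 and 0.278), that of SMUG1 also without VHL-KO replicate 2 (0.0917) and that of ATP5MC3 with the offsets (0.143). Over the alternatives their adjusted p-values ranged from 1.6e-06 to 0.125, from 0.00129 to 0.278 and from 2.5e-10 to 0.143. EVX1, a homeobox gene next to HOXA13, had 6 reads in VHL-KO replicate 1 and 0 in the other libraries, and EVX2, next to HOXD13, had 1 read in all.

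TALE homeodomain proteins bind DNA together with HOX proteins. Of 11 listed genes 9 were tested, with 2 higher (22.2%) and 4 lower (44.4%), beside 28.5% and 31.2% of all tested genes. Their median was -0.54, and -0.13 with the offsets. MEIS2 (-0.55) and PBX2 (0.27) were not called with the offsets, among other alternatives, at adjusted p-values of 0.549 (range 0.00469 to 0.549) and 0.0885 (range 0.00242 to 0.518). PBX3 fell from 13.4 ± 0.988 to 5.23 ± 0.483 CPM, by 1.35 on the log2 scale (adjusted p = 7.6e-08). TGIF2 fell by 0.54 and MEIS3 rose by 1.51 from a low level, 29, 21 and 40 reads against 51, 65 and 56. MEIS1 had 3, 1 and 2 reads in VC and 0 in each VHL-KO library, too few to test.

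All 30 listed Polycomb genes were tested, and 10 (33.3%) were higher and 15 (50%) lower, beside 28.5% and 31.2% of all tested genes, with a median of -0.47. With the offsets 6 were higher and 14 lower. No test between lists was made. EZH2, the methyltransferase of Polycomb repressive complex 2, had 1882, 1447 and 2216 reads in VC and 589, 552 and 463 in VHL-KO libraries. It fell by 1.23 on the log2 scale (SE 0.11, adjusted p = 1.4e-09), and its partners EED and SUZ12 fell by 1.23 and 1.14. EZH1, the paralog of EZH2, rose by 0.40 (adjusted p = 0.00867), which was not called with library size alone (0.171, range 4.6e-05 to 0.171). PCGF6 (-1.76), CBX2 (-1.64), PHF19 (-1.43) and RBBP7 (-1.33) also fell. Genes called higher included PHF1 (1.21), CBX7 (1.11) and YAF2 (0.83), whose calls held under all 15 alternatives. With the offsets for GC content and length the falls of EZH2, EED and SUZ12 were -0.76, -0.72 and -0.57 and were still called, and the list median was -0.17. Whether these levels bear on the HOX genes was not tested.

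In the list of Trithorax genes and H3K27 demethylases, 2 of 20 (10.0%) were higher and 14 (70.0%) lower, beside 28.5% and 31.2% of all tested genes, with a median of -0.45 and of -0.40 with the offsets. KMT2A, the MLL methyltransferase that maintains HOX expression, had 1472, 1297 and 1764 reads in VC and 947, 679 and 662 in VHL-KO libraries, and fell by 0.44 (adjusted p = 0.000884). The H3K27 demethylases moved apart, as KDM6A fell by 1.59 (adjusted p = 7.7e-07) and KDM6B rose by 0.78 (adjusted p = 2.7e-05). HCFC1 fell by 1.06 and PAXIP1 by 0.98.

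Among 21 genes of retinoic acid metabolism and signaling and the CDX regulators, 10 were tested, with 3 higher (30.0%) and 1 lower (10.0%), beside 28.5% and 31.2% of all tested genes. Their median was 0.18, and with the offsets it was -0.09, with 3 higher and 4 lower. ALDH1A3, which makes retinoic acid, had 1548, 1468 and 2097 reads in VC and 372, 257 and 293 in VHL-KO libraries and fell by 1.92 (adjusted p = 1.7e-12). ALDH1A1, with the same activity, had 308, 253 and 301 reads in VC and 729, 599 and 631 in VHL-KO libraries and rose by 1.73 (adjusted p = 3.3e-11). The groups of both genes were far apart, in opposite directions. DHRS3, which reduces retinaldehyde and is itself induced by retinoic acid, rose by 1.62, and the receptor RARA rose by 0.38 (adjusted p = 0.00136), a call lost with library size alone (0.0684) and with the offsets (0.966), over a range of 1.1e-05 to 0.973. RARB and CYP26A1, which respond to retinoic acid in many cells, had at most 8 and 4 reads in a library, and CDX1, CDX2 and CDX4 at most 1.

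**Figure D5:**
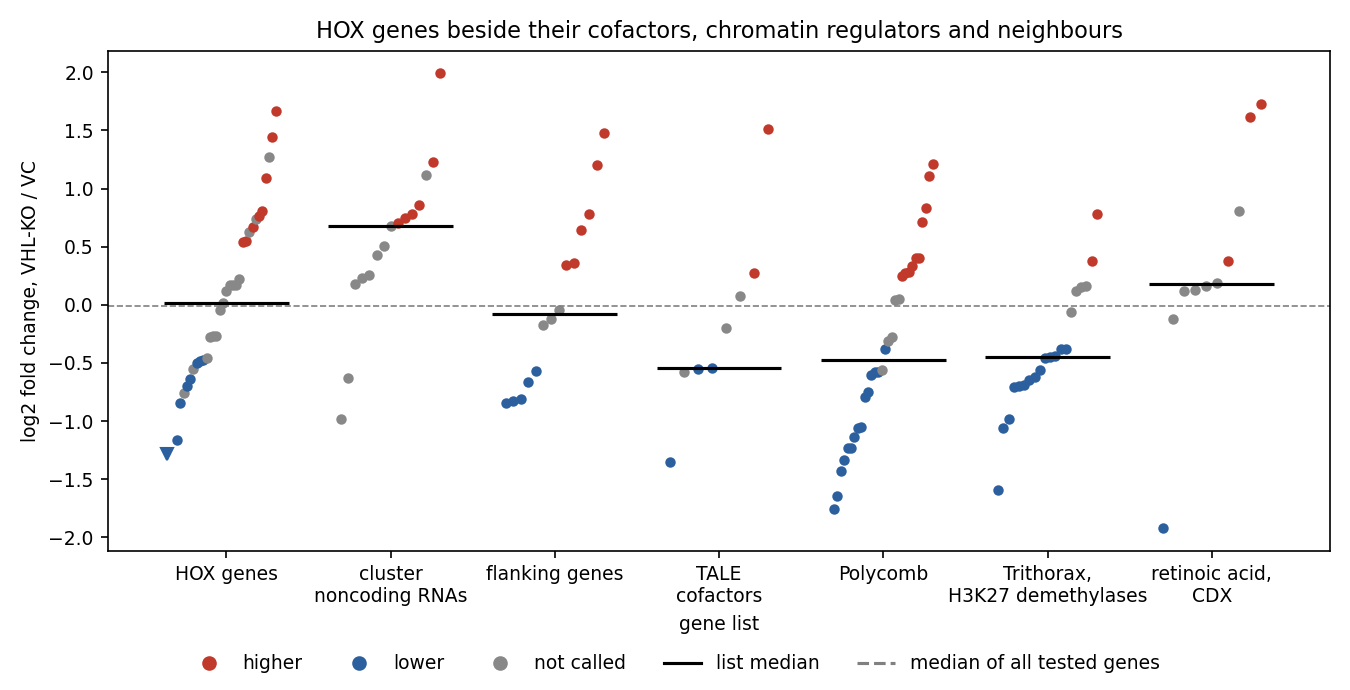
Log2 fold change of tested genes of each list, sorted within the list, with red for genes called higher, blue for lower and grey for not called. Black lines are medians over all tested genes of a list, the dashed line is the median of all tested genes, and the triangle is the bound for HOXD13. The HOX median is 0.02, with noncoding RNAs of the clusters at 0.68, Polycomb genes at -0.47 and Trithorax genes at -0.45.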

How the data were processed

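The authors trimmed reads with Trim Galore and Cutadapt, aligned them to GRCh38.p13 with STAR, kept uniquely mapped reads with SAMtools and deposited gene counts from HTSeq. Versions, annotation release, strandedness and counting mode are not given in the sources used here. From the deposited counts, genes with 10 or more reads in any library were tested with edgeR 4.0.16 (quasi-likelihood F test, two-sided, TMM factors) in R 4.3.3, with Benjamini-Hochberg adjustment over all 17401 tested genes and a threshold of 0.05. CPM used TMM-scaled libraries and RPKM divided it by the exon length in GENCODE 44. A call means an adjusted p under the threshold. Alternatives were DESeq2 1.42.0, RLE and upper quartile factors, library size alone, other filters, each library left out, a replicate block, and offsets for GC content and length (natural splines, 5 degrees of freedom). A median with HOXD13 at its bound was added after seeing the data. Members and lists were chosen with earlier results of these data known. Named genes were tested HOX and flanking genes, VHL, EZH2, KMT2A, MEIS1 and, in each other list, genes among the 4 called genes without overlap between groups that had the largest changes. Other genes named, and the promoters of HOXA11 and HOXD4, were chosen after their values were seen. The code was tested on simulated data.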

Additional observations from a re-analysis of the deposited data

How the results depend on the processing

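Over 15 alternatives, 10 of the 16 called HOX genes other than HOXD13 kept their direction and call wherever they had a value, and 8 HOX genes, none of them called, changed sign under at least 1 alternative. With library size alone 5 HOX genes were called higher, the HOX median was -0.17, the log2 ratios of summed CPM were 0.67 for HOXA, -0.25 for HOXB, -0.58 for HOXD, 0.39 for anterior, 0.23 for central and 0.03 for posterior genes, and log2 fold changes were -0.02 for HOXA9, HOXC13 and HOXD3, -0.17 for HOXB2 and -0.08 for HOXC10. Per kilobase the log2 ratio for HOXB was 0.07, a turned direction against -0.06 in CPM. With upper quartile factors the HOX median was 0.13, VHL -0.22, HOXB4 0.07 and TAX1BP1 0.08. Without the filter HOXB2 was -0.02, and with 10 or more reads in every library, which removed 4 tested HOX genes, the HOX median was 0.15. With offsets for GC content and length, without and with the replicate block, the HOX median was -0.32 and -0.34, VHL -0.11 in both, HOXB2 -0.34, HOXB13 -0.05, HOXC10 -0.08, HOXC13 -0.15 and HOXD3 -0.17 in both, HOXD-AS2 -0.54 and -0.55, SNX10 0.28 and 0.29, and TAX1BP1 0.12 and 0.14. Leaving out 1 library at a time gave ranges of -0.39 to -0.28 for VHL, -0.01 to 0.08 for HOXB2, -0.14 to 0.09 for HOXB4, -0.48 to 0.07 for HOXC4, -0.005 to 0.18 for HOXC10 and -0.2 to 0.11 for TAX1BP1. For all of these the cause was not tested. The correlations of same-numbered libraries over 13063 genes were 0.128, -0.0694 and 0.0575 for replicates 1, 2 and 3. Replicates 1 and 3 correlated best with their own number and replicate 2 did not. Such correlations cannot decide whether the libraries were paired, because deviations from a mean of 3 libraries depend on each other. With the replicate block 4847 genes were called higher and 5437 lower, 8 and 10 of them HOX genes, with HOXD13 among the lower. HOXD9 was then called at an adjusted p of 0.0421. HOXA-AS3 was not called at 0.0747, or at 0.0704 with the offsets added. Depth limits the 6 HOX genes under 10 reads, for which no difference was detectable.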
